A study of Saccharomyces cerevisiae with 12 samples.

Results

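The comparison described here sets a hexose transporter null strain of the budding yeast Saccharomyces cerevisiae against its reference strain during steady growth on ethanol, before any glucose was added. The arrays were chosen by their labels: the null arrays and the reference arrays taken at 0 min, which are 6 of the 12 arrays of the series, 3 per strain. The main result uses replicates 1 and 3 of each strain, 4 arrays in all, and replicate 2 is given beside it. In all, 5449 genes were tested.

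Both strains derive from CEN.PK, a laboratory strain. The null strain is KOY.VW101P, in which the known hexose transporter genes were deleted, and the reference strain is KOY.PK2-1C83P, described as isogenic, which keeps these genes. Both grew in chemostats, continuous cultures in which the feed sets the growth rate, with ethanol as the limiting carbon source and a dilution rate of 0.1 per h. The labels name each strain once and give neither the single deletions nor the markers used to make them. The remaining arrays of the series come from the same strains 20 min after a pulse of glucose, and the series asks which part of the response to glucose needs uptake of the sugar. The arrays are described as biological triplicates, with no further word on their source, so the p-values measure the spread between these arrays.

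Hexose transporters of the Hxt family carry glucose and related sugars across the plasma membrane by facilitated diffusion, and the family spans members of low and high affinity whose genes respond to different glucose levels. Snf3 and Rgt2 are relatives of the transporters that act as glucose sensors in the membrane. Cells that use ethanol need no sugar uptake: they burn it by respiration and build sugars through the glyoxylate cycle and gluconeogenesis. URA3 encodes orotidine-5'-phosphate decarboxylase of pyrimidine synthesis and is a common selection marker in strain construction.

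Values are log2 intensities of probe sets on an Affymetrix array, as deposited by the authors, after quantile normalization across arrays. The lowest value an array can take was 2.06 on this scale, called the floor here, and the highest was 15.84. A difference is the null minus the reference value on the log2 scale, and a gene is called when its adjusted p from limma is under 0.05. The intensities are of the RNA of a whole culture, in which fewer cells with a transcript and less transcript per cell cannot be told apart.

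The replicate 2 arrays lay apart from the other arrays of their label. Reference replicate 2 had a mean correlation across genes of 0.728 with reference replicates 1 and 3 at its own labelled time and of 0.992 with those labelled 20 min. Null replicate 2 had 0.928 with its own label and 0.984 with the null arrays labelled 20 min, whereas the 4 arrays of the main result had 0.986 or more with their own label. JEN1, the lactate permease of cells grown without glucose, stood at 10.50 on reference replicate 2, against 14.98 and 14.91 on reference replicates 1 and 3. Array medians as deposited ranged from 10.34 to 10.90. Among the control probe sets, the one for the 3' end of 25S ribosomal RNA read 5.65, 5.89 and 13.85 on null replicates 1, 2 and 3 and 12.77, 6.22 and 12.35 on reference replicates 1, 2 and 3, and the part of this in the results was not tested. The difference between the 3' and 5' probe sets of ACT1 was 0.68 to 0.85 on the null arrays and 0.77 to 1.15 on the reference arrays.

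On ethanol the null strain differed from the reference strain in few genes. With replicates 1 and 3, 70 of 5449 genes were called (1.28%), 48 being higher (0.881%) and 22 being lower (0.404%) in null. All 22 lower genes differed by at least 1 log2 unit, up to the 12.75 units by which HXT5 fell, and 34 of the 48 higher genes did. Of the 22, 9 were transporter genes and 7 lay within 4 genes of a transporter gene, while 30 of the 48 higher genes were on chromosome I. An absolute difference under 1 log2 unit was measured for 5244 genes (96.2%), and for 4032 genes (74%) the whole 95% confidence interval lay within 1 log2 unit of 0. A further 149 genes differed by 1 log2 unit or more without a call, and 859 genes had an unadjusted p under 0.05.

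The number of calls rested on single arrays, on the estimate of the spread and on the scaling. It was 17 without reference replicate 1, 21 without reference replicate 3 and 13 without null replicate 3. With the spread estimated from the 4 arrays at 0 min alone, limma called 10 genes, all lower, so that every one of the 48 higher calls was lost, while 407 higher and 234 lower genes had an unadjusted p under 0.05. With the values as deposited 41 genes were called, 13 higher and 28 lower, and with each array centred on its median 82 were called, 48 higher and 34 lower. With all 3 replicates as labelled 25 genes were called (0.459%), 14 higher and 11 lower, and 286 had an unadjusted p under 0.05. Of these 25 calls, 20 were also made in the same direction with replicates 1 and 3, whose arrays both fits share. The other 5 were CPD1, a cyclic phosphodiesterase, OPY2, a membrane protein of osmotic and pheromone signalling, PHO11, an acid phosphatase on chromosome I, and the permease relatives YOL162W and YOL163W, all higher in the null strain. Of the 30 genes named for their size of change, 8 kept their call under each of the 11 alternatives run on them: HXT5, HXT7, HXT2, HXT4, MAL11, REE1, DLD3 and URA3, all lower in the null strain. All 30 kept their direction under these alternatives. These genes were chosen with no overlap between the strains on replicates 1 and 3. Their direction could therefore not change when 1 array was left out.

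**Figure D1:**
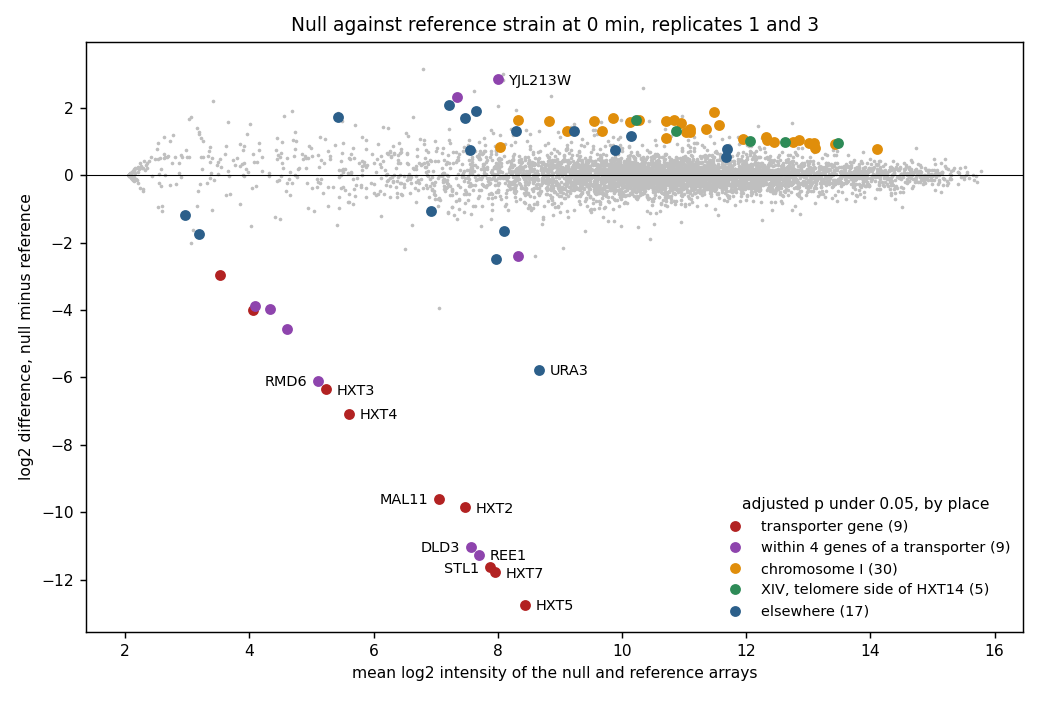
Each point is a gene, with the mean log2 intensity of the null and reference arrays (replicates 1 and 3, 0 min) on the horizontal axis and the log2 difference, null minus reference, on the vertical axis. The 70 called genes are coloured by place: the 9 transporter genes and 7 of the 9 called neighbours lie below 0, down to -12.75 for HXT5, and the 30 genes of chromosome I lie between 0.78 and 1.87.

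Transporter genes were looked at first, since the known hexose transporter genes are described as deleted in the null strain. HXT5 and HXT7 were chosen with earlier results known, so their values are no independent test of the labels. The hexose transporter list holds 18 genes, of which 15 could be examined, all but HXT6, HXT12 and HXT16, which are not analysed here. HXT5, a transporter gene expressed during slow growth and on carbon sources other than glucose, had log2 intensities of 2.06 and 2.06 on null replicates 1 and 3, against 14.86 and 14.75 on reference replicates 1 and 3. On replicate 2 it stood at 2.06 in the null strain and 10.19 in the reference strain. The null arrays were thus at the floor and the reference arrays near the top of the scale on replicates 1 and 3. HXT5 was at least 5810-fold lower in the null strain (log2 difference -12.75, SE 0.13, adjusted p = 3.07e-06), where the bound sets null values at no less than 0.25 log2 units above the floor.

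HXT7, which encodes a high-affinity transporter, had 2.06 and 2.06 on null replicates 1 and 3, against 13.67 and 14.02 on reference replicates 1 and 3. It was at least 2970-fold lower in the null strain (-11.79, adjusted p = 6.68e-06), and on replicate 2 the values were 2.35 in null and 9.68 in reference. Its probe set may also read HXT6, a near copy of the gene. HXT2, another high-affinity transporter gene, had 2.65 and 2.42 on the null arrays, against 12.65 and 12.14 on the reference arrays, and was at least 928-fold lower (adjusted p = 5.67e-05). On replicate 2 it had 2.42 in null and 10.82 in reference, so the strains did not overlap on any of the 6 arrays for HXT5, HXT7 or HXT2. HXT2 was the only gene of the 3 above the normalized floor on every null array, and its values as deposited were within 0.25 log2 units of the floor.

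HXT4, HXT3 and HXT1 were at 2.06 on all 3 null arrays. HXT4, which encodes a transporter of intermediate to high affinity, had 8.90 and 9.37 on reference replicates 1 and 3 and was at least 114-fold lower in the null strain (adjusted p = 2.91e-05). HXT3, a low-affinity transporter gene, had 8.27 and 8.53 on these arrays and was at least 68.4-fold lower in the null strain (adjusted p = 9.81e-06). HXT1, the low-affinity transporter gene best known for induction by abundant glucose, had 4.76 and 5.25 and was at least 6.49-fold lower in the null strain (adjusted p = 0.00517). On reference replicate 2 these genes stood higher than on reference replicates 1 and 3, HXT4 at 13.09, HXT3 at 13.58 and HXT1 at 13.18, whereas HXT5, HXT7 and HXT2 stood lower there. With all 3 replicates HXT4 was called (adjusted p = 0.032), while HXT3 (0.0898) and HXT1 (0.673) were not.

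Of the remaining Hxt genes, only HXT9 was called. HXT9 had 2.06 and 2.06 in null, against 6.45 and 5.68 in reference (adjusted p = 0.017, at least 13.5-fold lower), but 2.18 on reference replicate 2. This rests on the probe set kept: another probe set listed for HXT9, as deposited, read 2.11 and 2.08 on null replicates 1 and 3 and 2.04 and 2.07 on reference replicates 1 and 3. HXT9 and HXT11, both tied to drug resistance, are near-identical copies, and HXT11 had 2.06 and 2.06 in null, against 3.20 and 4.93 in reference (adjusted p = 0.194). HXT8 had 2.06 and 2.06 in null, against 2.75 and 3.48 in reference (adjusted p = 0.149). HXT14 differed by -0.23 (adjusted p = 0.576). HXT10, HXT13, HXT15, HXT17 and GAL2, the galactose permease, were at or near the floor in both strains, and no fold is given for them.

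Transporters outside the hexose list also differed. STL1, a glycerol proton symporter, had 2.06 and 2.06 on null replicates 1 and 3, against 13.51 and 13.87 on reference replicates 1 and 3, at least 2680-fold lower in the null strain (-11.64, adjusted p = 6.31e-06). On replicate 2 it had 2.06 in null and 6.09 in reference, and with all 3 replicates it was not called (adjusted p = 0.339). MAL11, a permease for maltose and other alpha-glucosides, had 2.27 and 2.23 in null, against 11.46 and 12.25 in reference, at least 751-fold lower (adjusted p = 1.48e-04). The null arrays were at or near the floor for both genes. MPH2, an alpha-glucoside permease, had 5.75 and 5.08 in null, against 7.93 and 7.25 in reference, above the floor on all of them, and the difference of -2.17 was not called (adjusted p = 0.267). MAL31, a maltose permease, differed by -0.45 (adjusted p = 0.316). The sensor genes did not pass the test: SNF3 had 10.99 and 10.90 in null, against 11.10 and 10.87 in reference, and RGT2 had 9.59 and 9.54 in null, against 9.81 and 9.93 in reference. The 95% interval of the difference was -0.38 to 0.30 for SNF3 and -0.70 to 0.09 for RGT2. Of the 18 measured genes made up of the hexose list, STL1, MAL11 and MPH2, 9 were lower in the null strain, beside 0.404% of all genes.

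**Figure D2:**
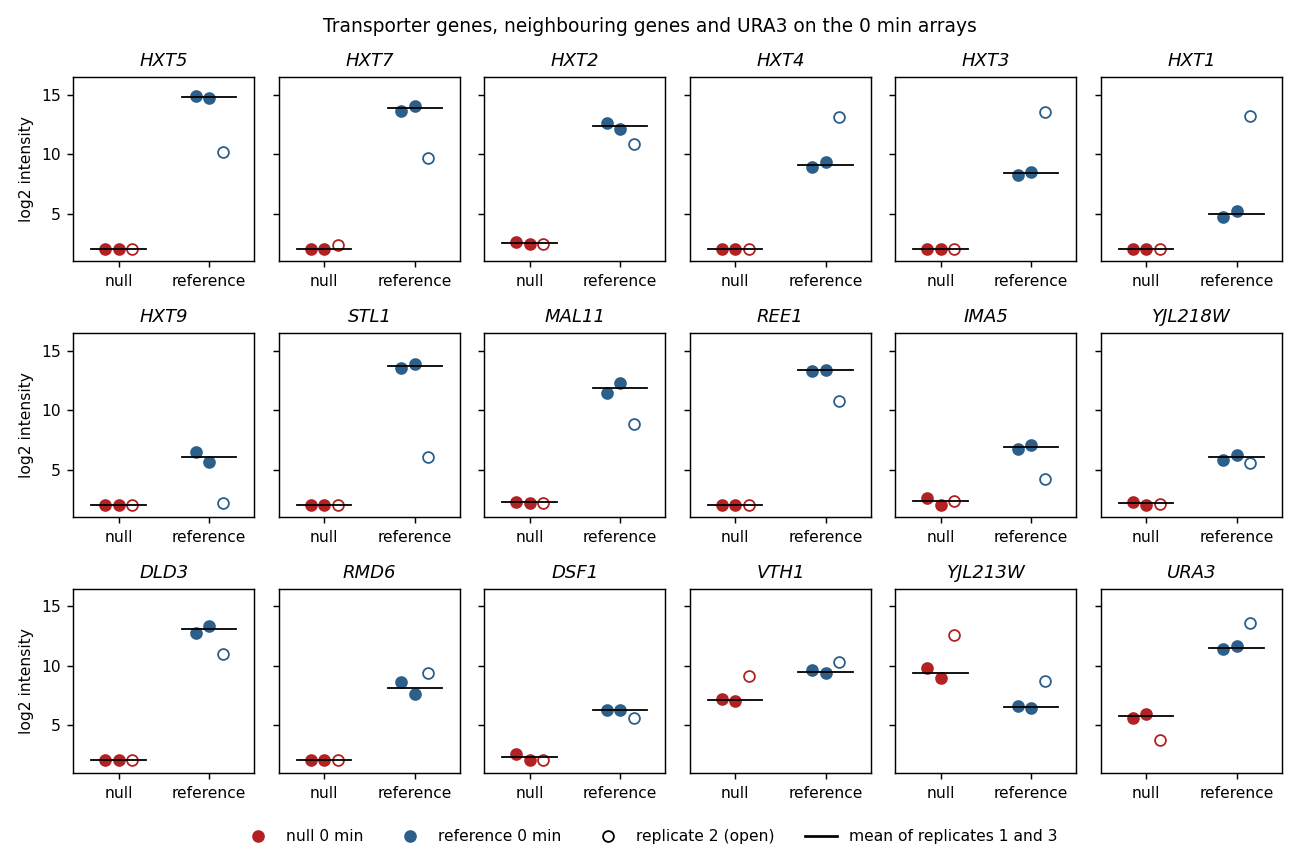
Each panel shows a gene, with the log2 intensity on the vertical axis and the null and reference arrays at 0 min side by side, null to the left. Filled points are replicates 1 and 3, open points replicate 2, and bars the mean of replicates 1 and 3. HXT5, HXT4, HXT3, HXT1, STL1, REE1, DLD3 and RMD6 lie at 2.06 on the 3 null arrays, while VTH1 and URA3 are lower in null but above the floor, and YJL213W is higher in null.

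URA3 was lower in the null strain but kept a signal above the floor there. It had 5.62 and 5.94 on null replicates 1 and 3, against 11.41 and 11.68 on reference replicates 1 and 3, a difference of -5.77 (SE 0.22, adjusted p = 3.11e-04), which is 54.4-fold lower. On replicate 2 the values were 3.82 in null and 13.58 in reference. The groups did not overlap on any replicate. The control probe sets for the 3' end, the middle and the 5' end of URA3 differed by -5.23, -5.54 and -7.49 as deposited. The other marker genes measured were not called: HIS3 differed by -0.29 (adjusted p = 0.33), LEU2 by -0.27 (0.572), LYS2 by 0.08 (0.718) and ADE2 by -0.08 (0.792). TRP1 was not analysed here. Of the 20 genes of pyrimidine synthesis and uptake measured, which leave out URA3, none was called, and their median difference was 0.02, beside a median of 0 over all genes. Among them, URA1, dihydroorotate dehydrogenase, differed by 0.07 (95% interval -0.41 to 0.54) and URA4, dihydroorotase, by 0.11 (-0.37 to 0.58). On replicate 2 the 20 genes had a median difference of -2.02.

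Mating genes, which differ between a and alpha cells, were listed as a further look at the strains. The a-factor genes MFA1 and MFA2 stood at 13.81 and 14.19, and at 13.02 and 13.11, on null replicates 1 and 3, against 14.02 and 13.70, and 13.25 and 13.15, on reference replicates 1 and 3. STE2, the receptor for alpha-factor in a cells, had 12.22 and 11.73 in null, against 12.37 and 12.45 in reference. Of the genes known from alpha cells, MF(ALPHA)2, an alpha-factor gene, was at the floor, with 2.06 and 2.08 in null, against 2.06 and 2.07 in reference, and the other 3 listed read above it. MF(ALPHA)1, the other alpha-factor gene, had 3.20 and 4.50 in null, against 5.03 and 5.26 in reference, and on replicate 2 it had 5.17 in null and 9.28 in reference. STE3, the receptor for a-factor, had 8.33 and 8.50 in null, against 8.03 and 8.37 in reference. SAG1, the agglutinin of alpha cells, had 8.32 and 7.12 in null, against 8.45 and 8.23 in reference. The mating type of the strains was not worked out from these values. None of the 13 mating genes listed was called, and their median difference was -0.13.

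Genes beside transporter loci were the other group lower in the null strain. Of 93 measured genes within 4 genes of the 22 transporter loci, counted in the gene order of the R64 reference assembly, 7 were lower and 4 higher in the null strain (11.8%), beside 1.28% of all genes. The remaining neighbours had a median difference of 0. The 4 higher neighbours include KRE1 and LEM3, which are described below with the left end of chromosome XIV. Without null replicate 3 the count of lower neighbours was 2, without reference replicate 1 it was 3 and without reference replicate 3 it was 4. Of the 7 lower neighbours, 6 lay between HXT8 and HXT9 or next to HXT13, with null arrays near the floor for each of them.

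Between HXT8 and HXT9 on chromosome X lie IMA5, REE1 and YJL218W. REE1, which acts in the control of enolase, had 2.06 and 2.06 on null replicates 1 and 3, against 13.26 and 13.40 on reference replicates 1 and 3. It was at least 2080-fold lower in the null strain (adjusted p = 6.31e-06). On replicate 2 it had 2.06 in null and 10.80 in reference. IMA5, an isomaltase, had 2.61 and 2.06 in null, against 6.71 and 7.06 in reference, at least 21.5-fold lower (adjusted p = 0.0215). YJL218W, a putative acetyltransferase, had 2.25 and 2.06 in null, against 5.82 and 6.25 in reference, at least 13.2-fold lower (adjusted p = 0.0097). The strains were apart for REE1, IMA5 and YJL218W on all 6 arrays. On the other side of HXT8, the uncharacterised gene YJL213W was higher in the null strain: it had 9.85 and 9.00 in null, against 6.67 and 6.48 in reference (difference 2.85, 7.19-fold, adjusted p = 0.0271). On replicate 2 YJL213W had 12.61 in null and 8.78 in reference. Its call was lost without any single one of the 4 arrays, with adjusted p of 0.0534 without null replicate 1, 0.0703 without null replicate 3, 0.151 without reference replicate 1 and 0.126 without reference replicate 3.

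Beside HXT13 on chromosome V lie DSF1, DLD3 and RMD6, in this order. DLD3, a cytosolic enzyme of D-lactate and 2-hydroxyglutarate metabolism, had 2.06 and 2.06 in null, against 12.76 and 13.38 in reference, at least 1740-fold lower in the null strain (adjusted p = 1.32e-05). On replicate 2 DLD3 had 2.06 in null and 10.99 in reference. RMD6, required for meiotic nuclear division, had 2.06 and 2.06 in null, against 8.65 and 7.64 in reference, at least 57.4-fold lower (adjusted p = 0.00329, and 0.0547 without null replicate 3). DSF1, a putative mannitol dehydrogenase, had 2.63 and 2.06 in null, against 6.34 and 6.27 in reference, at least 14.3-fold lower (adjusted p = 0.00674). HXT13 itself was at 2.06 in both strains, so the strains could be told apart at this locus by the neighbours alone. The next gene on that side, YEL073C, differed by -1.49 without a call (adjusted p = 0.196), and on the far side HPA3 differed by -0.66 (0.179) and SIT1 by -0.02. With all 3 replicates REE1 (adjusted p = 4.48e-04), YJL218W (2.32e-04), DLD3 (1.72e-04), RMD6 (4.09e-04) and DSF1 (4.09e-04) were called, and IMA5 (0.446) was not.

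The seventh lower neighbour was VTH1, a relative of the vacuolar sorting receptor Vps10, near HXT12. VTH1 had 7.22 and 7.02 in null, against 9.67 and 9.37 in reference (-2.40, adjusted p = 0.00771), above the floor in both strains. It has a near-identical copy, VTH2, near HXT9, and the probe set may read both. Leaving out null replicate 3 gave an adjusted p of 0.0868 and leaving out reference replicate 1 gave 0.069. Near HXT11, YOL159C-A had 8.21 and 8.80 in null, against 6.01 and 6.34 in reference (2.33, adjusted p = 0.044), a call that was lost without any single array (adjusted p 0.059, 0.211, 0.223 and 0.126 without null replicates 1 and 3 and reference replicates 1 and 3). ENB1, an enterobactin transporter gene on the same stretch, had 11.58 and 10.93 in null, against 9.73 and 9.54 in reference, without a call (1.62, adjusted p = 0.0693). Farther along, YOL163W had 9.43 and 9.08 in null, against 7.67 and 6.99 in reference (1.93, adjusted p = 0.0688, and 0.0147 with all 3 replicates).

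At most transporter loci no neighbour was called. The genes beside HXT2 were CLU1, which differed by -0.26, and ADI1, 2 genes away, by -0.16. Beside HXT7, YDR341C differed by 0.03, and beside HXT3, SVF1 differed by 0.21. Beside HXT4, MSR1, the mitochondrial arginyl-tRNA synthetase, had the largest of these, -1.52 (adjusted p = 0.052). Beside STL1, FIT1 differed by -0.82 (adjusted p = 0.455) and PAD1 by -0.03, and beside MAL11, MAL13 differed by -0.66 (0.417).

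Chromosome I stood apart from the other chromosomes. Among genes whose mean log2 intensity exceeded 6, the median difference on chromosome I was 0.98 (76 genes), a ratio of 1.97 of null to reference, while the medians of the other 15 chromosomes lay between -0.04 and 0.03. The lower and upper quartiles on chromosome I were 0.71 and 1.34, against -0.21 and 0.20 for the 5024 genes of the other chromosomes. Set against the mean of reference replicates 1 and 3, the chromosome I median was 1.03 and 0.99 on null replicates 1 and 3 and 0.71 on null replicate 2, against 0 and 0 on reference replicates 1 and 3 and 0.08 on reference replicate 2. The 3 null arrays thus lay above the 3 reference arrays. The pairwise median was 0.98 for replicate 1, 1.01 for replicate 3 and 0.76 for replicate 2, and the strains differed by a median of 0.72 on chromosome I at 20 min with replicates 1 and 3.

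**Figure D3:**
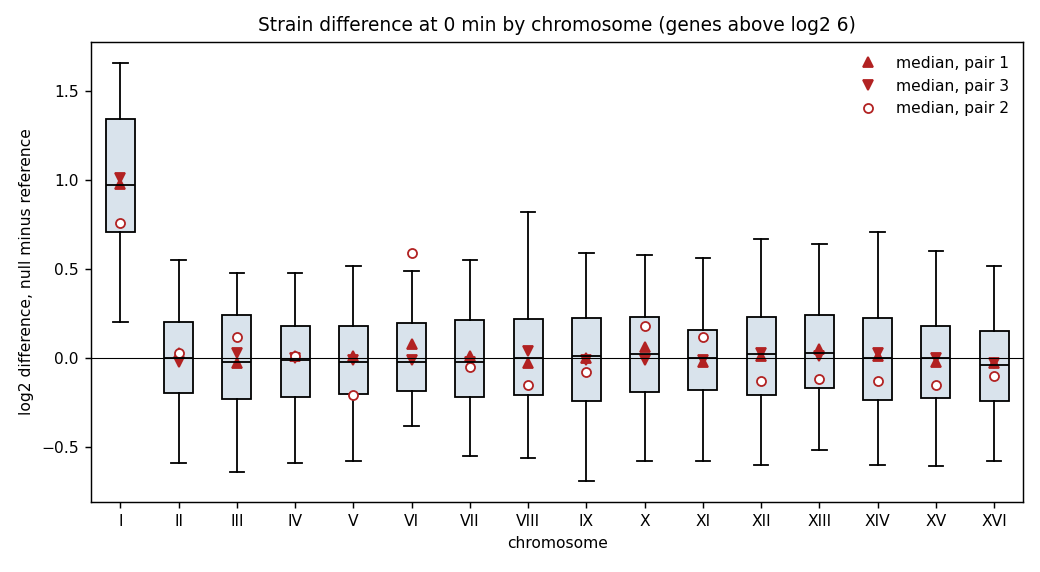
Boxes show, for each of the 16 chromosomes, the median and quartiles of the log2 difference, null minus reference, over genes with a mean log2 intensity above 6 (replicates 1 and 3), with whiskers from the 5th to the 95th percentile. Red marks are the medians of each same-numbered pair of null and reference arrays, open for replicate 2. Chromosome I has a median of 0.98, and the other medians lie between -0.04 and 0.03.

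The shift ran along the whole chromosome. In gene order, the medians of successive blocks of 19 genes on chromosome I were 0.95, 0.95, 1.09 and 1.06. Of the 76 genes, 72 had a positive difference and 71 were positive in both pairs of replicates 1 and 3. The 4 negative genes were the transposon genes YAR009C (-0.20) and YAR010C (-0.93) and the right-end genes YAR066W (-0.73) and YAR068W (-0.43), which are members of repeated families, so their probe sets may read copies on other chromosomes, and none of the 4 was called. A difference between 0.5 and 1.5 log2 units was measured for 63.2% of chromosome I genes, against 7.05% of genes on the other chromosomes.

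Of the 90 chromosome I genes tested, 30 were called higher (33.3%, beside 0.881% of all genes) and none lower. The count moved with the arrays: it was 2 without reference replicate 1, 5 without reference replicate 3, 13 without null replicate 1 and 2 without null replicate 3, and it was 9 with the values as deposited and 6 with all 3 replicates. It was 0 in limma when the spread came from the 0 min arrays alone, where 66 genes of the chromosome were higher and none lower at an unadjusted p under 0.05. The median moved far less, between 0.98 and 1.03 when single arrays were left out and 0.84 with the values as deposited. The 46 genes above the intensity limit that were not called had a median difference of 0.76.

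The called genes of chromosome I have varied roles. SYN8, an endosomal SNARE, had 12.31 and 12.52 on null replicates 1 and 3, against 10.48 and 10.60 on reference replicates 1 and 3 (1.87, 3.66-fold, adjusted p = 0.0071), and 11.67 in null and 10.33 in reference on replicate 2. SPO7, a regulatory subunit of a nuclear envelope phosphatase, had 11.04 and 11.17 in null, against 9.53 and 9.36 in reference (1.66, adjusted p = 0.00329). SPO7 was called without each of the 4 arrays in turn, whereas SYN8 was called without null replicate 1 (adjusted p = 0.0351) and not without the others (0.0732 without null replicate 3, 0.0754 without reference replicate 1 and 0.0565 without reference replicate 3). SWD1, a subunit of the histone H3 lysine 4 methylase complex, had 10.34 and 10.33 in null, against 9.14 and 8.90 in reference (1.32, adjusted p = 0.0094). ERV46, a protein of vesicles between the endoplasmic reticulum and the Golgi, had 13.37 and 13.38 in null, against 12.39 and 12.29 in reference (1.04, adjusted p = 0.00929). None of SYN8, SPO7, SWD1 and ERV46 overlapped between strains, replicate 2 included.

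Other large differences on chromosome I were those of SEN34, a subunit of the tRNA splicing endonuclease (1.72, adjusted p = 0.00912), VPS8, a subunit of an endosomal tethering complex (1.66, 0.0119), and SPC72, a spindle pole body protein (1.65, 0.038). FRT2, a membrane protein of the endoplasmic reticulum, differed by 1.63 (adjusted p = 0.00418), CDC15, a kinase of mitotic exit, by 1.63 (0.0263) and PEX22, a peroxisomal membrane protein, by 1.61 (0.017). LTE1, which acts in mitotic exit, had 11.05 and 10.81 in null, against 9.18 and 9.50 in reference (1.59, adjusted p = 0.0257), but on replicate 2 it had 9.00 in null and 10.51 in reference. LTE1 was thus higher in null on replicates 1 and 3 and lower on replicate 2. Of the 30 called genes, 24 had a positive difference on replicate 2, where the share over all genes was not worked out. With all 3 replicates SEN34 (adjusted p = 0.0214), VPS8 (0.0147), SYN8 (0.0174), PEX22 (0.0168) and ATS1 (0.00452) were among those called.

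Genes at the left end of chromosome XIV were also higher in the null strain. The 10 genes with a mean above 6 between the telomere and the HXT14 locus had a median difference of 1.01 (0.38 to 1.66), and all 10 were positive. MDJ2, a mitochondrial chaperone partner on this stretch with a mean below 6, differed by 0.62. The next 10 such genes on the other side of HXT14 had a median of 0.02 (-0.37 to 0.43). All 333 such genes on that side, these 10 included, had -0.03. The median of the 10 genes was 1.16 for replicate 1, 0.86 for replicate 3 and 1.27 for replicate 2, and 1.09 at 20 min. For the first 10 genes beyond HXT14 the medians were -0.16, 0.24 and -0.40 for replicates 1, 3 and 2. The split was set at HXT14 and no other boundary was tried, so these medians compare its sides and do not place a step.

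Of these 10 genes, 5 were called higher, beside 0.881% of all genes. None of them was called when the spread came from the 0 min arrays alone. FIG4, a phosphoinositide phosphatase, had 11.04 and 11.08 on null replicates 1 and 3, against 9.23 and 9.57 on reference replicates 1 and 3 (1.66, 3.17-fold, adjusted p = 0.0173). RPD3, a histone deacetylase, had 13.13 and 13.10 in null, against 12.06 and 12.20 in reference (0.99, adjusted p = 0.017). LEM3, a subunit of lipid flippases, had 12.51 and 12.64 in null, against 11.64 and 11.47 in reference (1.02, adjusted p = 0.0173). The values of FIG4, RPD3 and LEM3 did not overlap between strains on the 6 arrays. KRE1, a protein of cell wall glucan assembly, differed by 0.97 (adjusted p = 0.017), and PFA3, a palmitoyltransferase, by 1.33 (0.0434). The other members were AAD14 (0.86), PEX6 (1.15), EGT2 (0.38), VNX1 (0.93) and YNL320W (1.23), none of which was called. With all 3 replicates RPD3 (adjusted p = 0.0131), FIG4 (0.00384), LEM3 (0.00536) and KRE1 (0.0214) were called. FIG4 lost its call with replicates 1 and 3 when any single array was left out (adjusted p 0.0587, 0.14, 0.101 and 0.0686 without null replicates 1 and 3 and reference replicates 1 and 3).

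**Figure D4:**
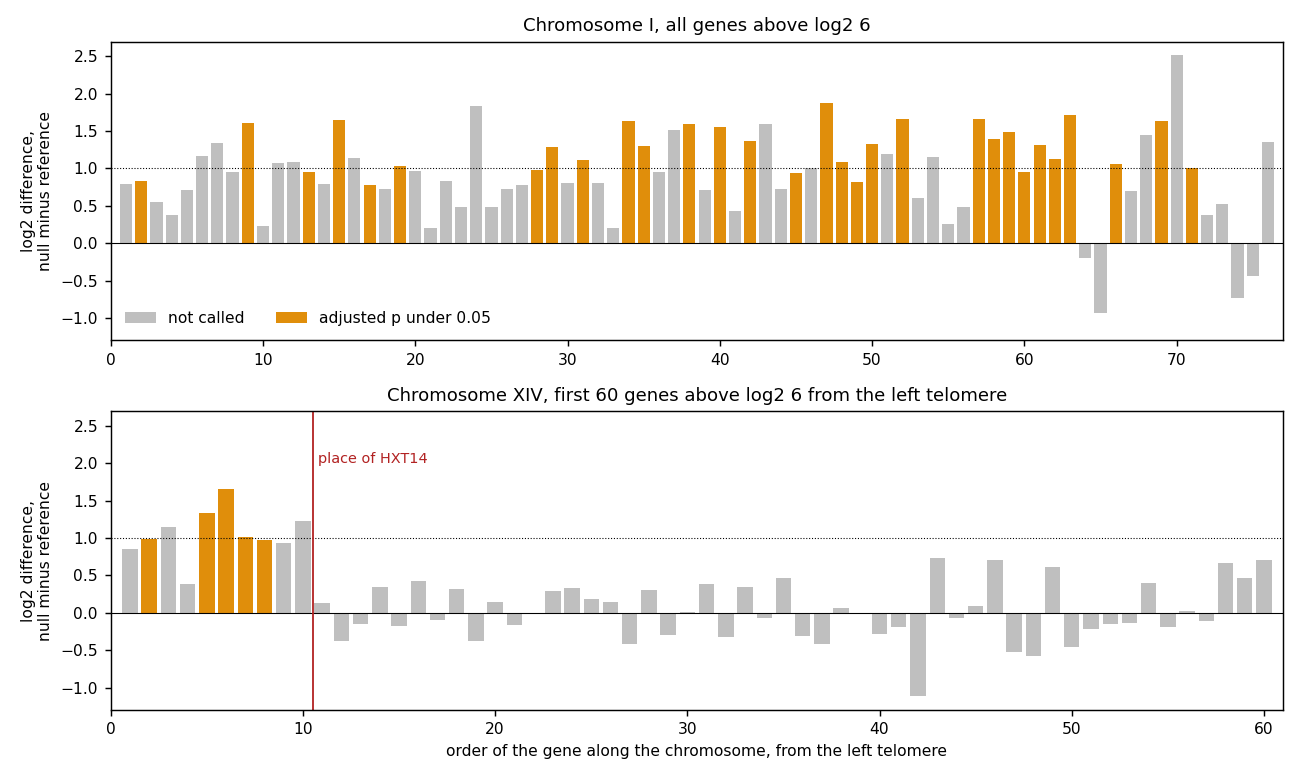
Bars give the log2 difference, null minus reference (replicates 1 and 3), of genes with a mean log2 intensity above 6 in their order from the left telomere, for all of chromosome I (76 genes) and the left part of chromosome XIV. Orange bars are called genes, the dotted line marks 1 log2 unit and the red line the place of HXT14. The bars are positive for 72 of 76 genes on chromosome I and for the 10 genes to the left of HXT14, and scatter around 0 to its right.

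Outside these places 17 of 5242 genes were called (0.324%), 11 higher and 6 lower. ARI1, an NADPH-dependent aldehyde reductase, had 8.13 and 8.37 on null replicates 1 and 3, against 5.99 and 6.34 on reference replicates 1 and 3 (2.08, 4.24-fold, adjusted p = 0.0114), and 12.46 in null and 10.35 in reference on replicate 2. The pairwise difference was therefore near 2 log2 units on each replicate, although replicate 2 stood at other levels, and with all 3 replicates the adjusted p was 0.673. ARI1 was also not called without null replicate 3 (adjusted p = 0.104) or without reference replicate 1 (0.0759). YLR108C, of unknown function, had 8.46 and 8.18 in null, against 6.55 and 6.67 in reference (1.71, adjusted p = 0.00578, and 0.0668 without reference replicate 1). PAU5 and PAU21, of the large seripauperin family whose members resemble each other closely, differed by 1.92 (adjusted p = 0.0257) and 1.75 (0.0411), and PAU5 was called in 2 of 11 alternatives. The rest of the higher genes were STB2 (1.31), MTG2 (1.33), MIG1 (1.16), DMA2 (0.78), YLL056C (0.77), YOR034C-A (0.75) and SWP1 (0.55).

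The 6 lower genes elsewhere began with URA3. YBL100W-A, a gene of a transposon family with many copies, had 6.89 and 6.56 in null, against 9.04 and 9.39 in reference (-2.49, adjusted p = 0.016). SNU56, a component of the U1 small nuclear ribonucleoprotein, had 7.16 and 7.39 in null, against 8.94 and 8.88 in reference (-1.64, adjusted p = 0.0173). RPR2, a subunit of RNase P, had 6.51 and 6.28 in null, against 7.53 and 7.39 in reference (-1.07, adjusted p = 0.0215). The strains did not overlap on the 6 arrays for SNU56 or RPR2. FMT1, the mitochondrial methionyl-tRNA formyltransferase, was at least 3.04-fold lower in the null strain (adjusted p = 0.0289) and MST27, of a repeated family of membrane proteins, at least 2.27-fold lower (0.0298), both with reference values of 3.45 to 4.23, close to the floor. Without null replicate 3 YBL100W-A, SNU56 and RPR2 were not called (adjusted p of 0.113, 0.11 and 0.124), nor without reference replicate 1 (0.0831, 0.131 and 0.135) or 3 (0.09, 0.0985 and 0.09).

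MIG1, the zinc finger repressor of glucose repression, was the only called gene of 40 measured members of the glucose sensing and repression list. It had 10.63 and 10.82 on null replicates 1 and 3, against 9.68 and 9.45 on reference replicates 1 and 3 (1.16, SE 0.12, 2.23-fold, adjusted p = 0.017). On replicate 2 MIG1 had 12.21 in null and 11.17 in reference, higher in both strains than on the other arrays. With all 3 replicates the adjusted p was 0.673. MIG1 was also not called when the spread came from the 0 min arrays alone. Its relatives MIG2 and MIG3 differed by 1.40 (95% interval 0.50 to 2.30, adjusted p = 0.186) and 0.97 (0.46 to 1.48, 0.133), without a call. MIG2 stood at 3.43 and 4.29 in null, against 2.82 and 2.10 in reference, close to the floor, while it had 13.59 in null and 10.96 in reference on replicate 2. The sensor pathway genes STD1 (0.91, adjusted p = 0.196) and MTH1 (0.72, 0.304) were not called, nor was RGT1 (-0.43, 0.352). The list as a whole had a median difference of -0.03, beside 0 over all genes.

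The genes by which yeast grows on ethanol gave no call with replicates 1 and 3. In the gluconeogenesis and glyoxylate cycle list none of 12 measured genes was called. Differences ran from -0.42 to 0.16, and the interval lay within 1 log2 unit of 0 for 11 of the 12 genes. On replicate 2, which lay apart from the other arrays of its label, this list had a median difference of 4.18. The list of ethanol and acetate use had 3.88 there. FBP1, fructose-1,6-bisphosphatase, had 14.79 and 14.39 on null replicates 1 and 3, against 14.51 and 14.66 on reference replicates 1 and 3, and ICL1, isocitrate lyase, had 15.36 and 15.24 in null, against 15.16 and 15.40 in reference. The values of both genes overlapped between strains and lay near the top of the scale. PCK1, phosphoenolpyruvate carboxykinase, differed by 0.16 (95% interval -0.13 to 0.45), and MLS1, malate synthase, by 0.09 (-0.31 to 0.49). None of 24 genes of ethanol and acetate use was called (median 0.03): ADH2, the alcohol dehydrogenase that oxidises ethanol, differed by -0.20 (-0.45 to 0.04) and ACS1, acetyl-CoA synthetase, by 0.23 (-0.18 to 0.64). For CAT8, an activator of gluconeogenic genes, the difference was -0.08 (-0.43 to 0.26), while for ADR1, an activator of ADH2, the interval of -1.19 to 1.32 leaves room for a change by more than 1 log2 unit.

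Respiration and the other parts of central metabolism gave no calls either, with small shifts of the medians with replicates 1 and 3. The respiratory chain list had a median difference of -0.20 (25 genes, 21 negative), the citric acid cycle list -0.18 (19 genes, 15 negative) and the ATP synthase list -0.06 (17 genes). In the same order, the medians were -0.13, -0.01 and 0.02 for replicate 1 and -0.30, -0.24 and -0.17 for replicate 3. On replicate 2 they were 2.09, 3.69 and 1.65. Mitochondrial ribosomal proteins had a median of -0.19, with 54 of 71 genes negative and the interval within 1 log2 unit of 0 for 69. Cytosolic ribosomal proteins had 0.09 (94 of 123 positive) and proteasome genes 0.15 (32 of 34 positive). For replicates 1, 3 and 2 the medians were -0.27, -0.10 and 0.80 for mitochondrial ribosomal proteins. They were 0.03, 0.21 and -1.05 for cytosolic ribosomal proteins and 0.20, 0.16 and 2.30 for proteasome genes. On single chromosomes other than I, 45.4 to 53.2% of genes with a mean above 6 were positive. None of the genes in these 6 lists was called, so the shifts are differences of medians with no gene past the test. In the respiratory chain list CYC7, the hypoxic isoform of cytochrome c, stood out with 9.36 and 10.70 in null, against 7.80 and 7.56 in reference (2.35, adjusted p = 0.103). Glycolysis genes had a median of 0.06 (25 genes), where CDC19, pyruvate kinase, differed by 0.49 (95% interval 0.20 to 0.79, adjusted p = 0.172) and HXK2, the main hexokinase, by 0.29 (0.00 to 0.59). Stress genes had a median of 0.15 (36 genes, none called), with HSP12, a small heat shock protein, at 15.52 and 15.64 in null, against 15.46 and 15.60 in reference. On replicate 2 the medians were 0.54 for glycolysis genes and 4.37 for stress genes.

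Across the 35 functional lists, which hold 1117 measured genes other than transporters, 4 genes were higher and 1 was lower (0.448%, beside 1.28% of all genes). The higher genes were MIG1, CYS3, a cystathionine gamma-lyase, GCV3, a subunit of the glycine cleavage complex, and FLO9, a flocculin of a repeated family, and the lower gene was IMA5. CYS3 (0.82, adjusted p = 0.0405), GCV3 (0.78, 0.0263) and FLO9 (0.83, 0.0315) are on chromosome I. On replicate 2 CYS3 (12.55 in null, 14.17 in reference) and GCV3 (13.46 and 13.91) were lower in null, and FLO9 (10.02 and 9.26) was higher. With all 3 replicates none of them was called, and CYS3 differed by 0.01. With replicates 1 and 3 and transporters left out, no gene was called in 30 of the 35 lists. With transporters kept it was 28, since HXT9 and STL1 are also members of the multidrug and the glycerol lists. Of the 1117 genes, 1081 differed by less than 1 log2 unit, and 880 (78.8%) had a 95% interval within 1 log2 unit of 0. The count of 5 was 0 without null replicate 3, reference replicate 1 or reference replicate 3 and 16 without null replicate 1. In ribosome biogenesis, a class of growth genes, none of 108 genes was called (median 0.12). None of 56 genes of amino acid synthesis under Gcn4 was called (median -0.03). On replicate 2 the medians were -3.85 for ribosome biogenesis and -0.85 for amino acid synthesis.

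**Figure D5:**
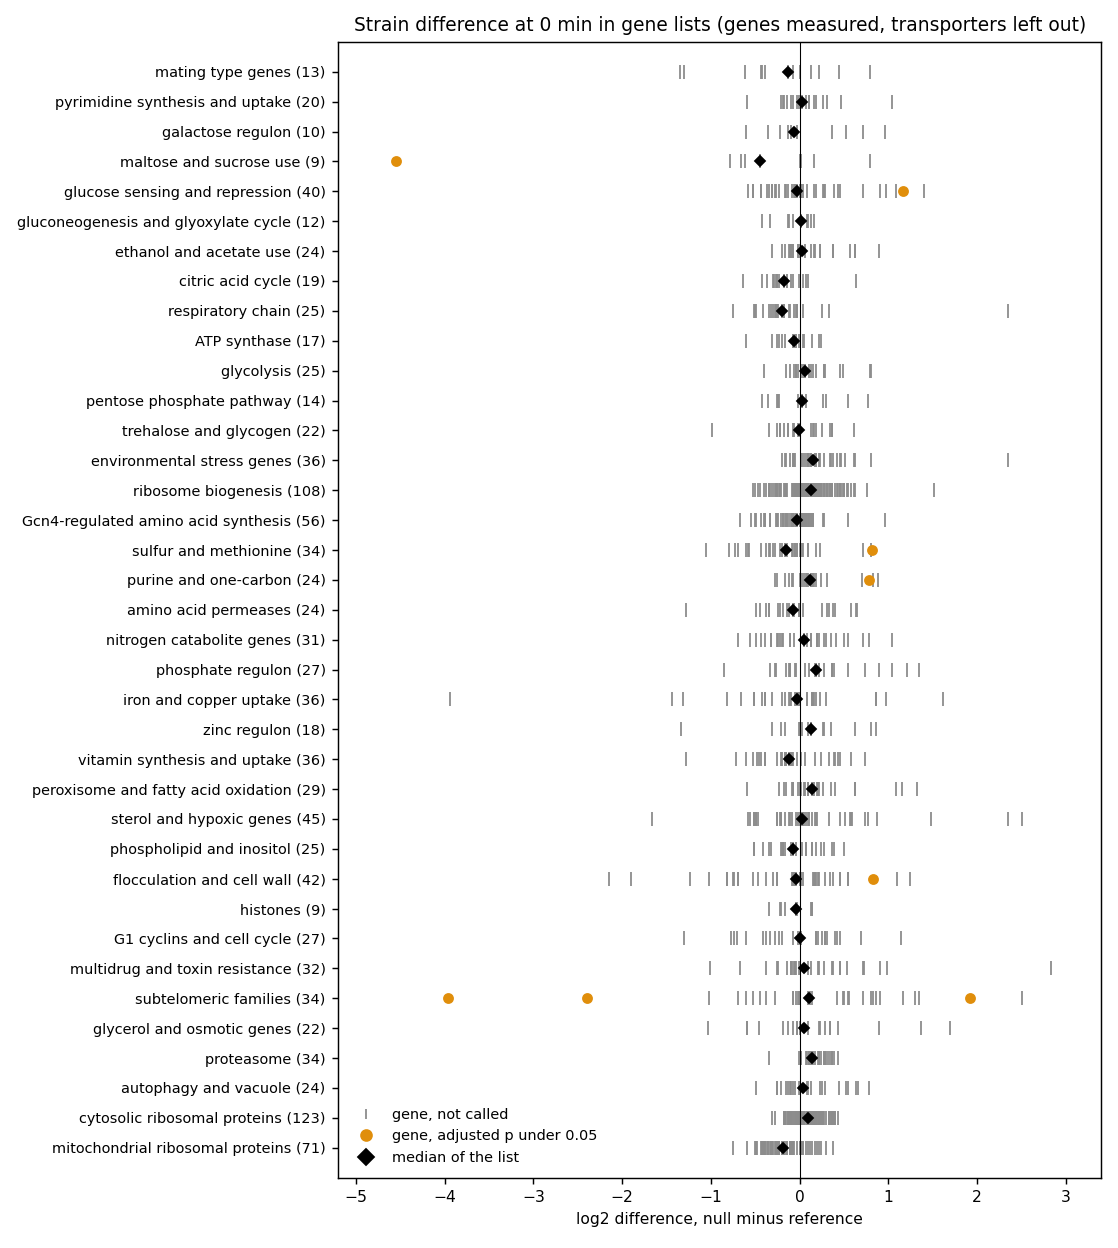
Each line is a gene list, with the number of its measured genes other than transporters, and the horizontal axis is the log2 difference, null minus reference (replicates 1 and 3). Grey ticks are genes that were not called, orange points called genes and black diamonds the list medians. The called points are IMA5, MIG1, CYS3, GCV3, FLO9 and the subtelomeric genes DSF1, VTH1 and PAU5, and the medians lie close to 0.

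The arrays taken 20 min after the glucose pulse carry RNA of the same strains and entered the comparison at 0 min only through the normalization and the estimate of the spread. There, 4106 genes differed between the strains (75.4%), with replicates 1 and 3. Of the 70 genes called at 0 min, 55 (78.6%) were called in the same direction at 20 min, 18 lower and 37 higher. These are 1.34% of the calls at 20 min. The share of all genes called at 20 min was not split by direction. The counts by direction and by place therefore have no like share beside them. Both times also used the same estimate of the spread for each gene. The shared count was 14 without reference replicate 1, 19 without reference replicate 3 and 13 without null replicate 3 of the 0 min arrays. Of the 22 lower genes 4 were not called at 20 min, and of the 48 higher genes 6 were lower and 5 were not called at 20 min. By place, 8 of the 9 transporter genes, 6 of the 7 lower neighbours, all 5 genes of the chromosome XIV end and 21 of the 30 chromosome I genes were called in the same direction at both times. IMA5, for example, differed by -4.55 at 0 min and by -0.89 at 20 min (adjusted p = 0.159), and HXT9 by -4.01 and by -0.55 (0.267). VTH1 differed by -2.40 at 0 min and -2.39 at 20 min (adjusted p = 1.16e-04), YJL213W by 2.85 and 2.83 (6.38e-04), FIG4 by 1.66 and 1.72 (3.37e-04) and ARI1 by 2.08 and 2.18 (1.50e-04). The difference between the times was itself called for 44 of the 70 genes. How often it was called over all genes was not worked out, so this count does not set the 70 genes apart. Replicate 2 of the 0 min arrays entered the main result only through the normalization. There, 20 of the 22 lower and 41 of the 48 higher genes had the same sign. The same share over all genes was not worked out, so these counts have nothing to be set against.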

How the data were processed

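RNA of chemostat cultures was measured on Affymetrix Yeast Genome 2.0 arrays, 12 in all. Per the labels' protocols, total RNA was extracted with Qiagen RNeasy mini kits with on-column DNase digestion, and 5 ug of it went into the biotinylated cRNA. The authors deposited 1 log2 intensity per probe set and array. The software, background correction and normalization behind these values are not given in the sources used here, and neither is a genome build. Of 10928 probe sets, 5498 were matched by gene identifier to 5449 S. cerevisiae genes of the RefSeq R64 assembly, and the probe set of highest mean was kept for 47 genes with several. Probe sets with no listed symbol (3683) or with identifiers of other organisms (1746, at the floor in 99.4 to 99.8% of cases per array) were not used. Quantile normalization was applied across the 12 arrays because their medians ranged by 0.56 log2 units, above a limit of 0.1.

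A model with 4 group means (strain by time) was fitted to the 8 arrays of replicates 1 and 3, with 4 residual degrees of freedom, and to all 12 arrays, with 8, using limma 3.58.1 in R 4.3.3 with eBayes. All adjusted p are Benjamini-Hochberg values over the 5449 genes. The median SE was 0.19 and the 95% interval reached a median of 0.47 log2 units to either side, and the number of arrays limits this precision. Where null values as deposited lay within 0.25 log2 units of the floor, the fold is a lower bound that sets them at no less than the floor plus 0.25. Chromosome medians used genes with a mean above 6. Neighbours are genes within 4 genes of a transporter locus in the R64 gene order, with MPH2, MPH3, MAL11 and STL1 added to the hexose list from general knowledge of such strains. Replicate numbers did not pair the arrays: deviations of same-numbered arrays from their group means correlated at 0.0391 with replicates 1 and 3. The fit was tested on simulated data with known changes.

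The arrays compared, the gene lists and the genes followed were chosen with earlier results of these data known. Genes were named by rule: HXT5, HXT7 and URA3, the 15 largest called differences each way with a mean of at least 7 in the higher group, all genes of the strain lists, up to 4 called members of each other list, and the calls with all 3 replicates. Genes named beyond it, such as those beside transporter loci, on chromosome XIV and in the metabolic lists, were chosen after their values were seen. Alternatives changed the threshold, the scaling, the choice of probe sets, the treatment of dim genes, the variance model and the arrays fitted, and added array weights or a replicate block. Plots used Python 3.11.15 and matplotlib 3.10.9.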

Additional observations from a re-analysis of the deposited data

Results flagged for a closer look

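For 18 of the 30 genes named for their size of change at 0 min, the strain difference itself differed between 20 min and 0 min by the interaction term of limma with replicates 1 and 3. The share of all genes with such a difference was not worked out, so this count does not mark these genes as unusual. At 20 min, 75.4% of all genes differed between the strains. Each value below is the log2 difference null minus reference at 20 min minus that at 0 min.

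Among transporter genes the null arrays were at or near the floor at both times. The difference was smaller in size at 20 min for STL1 (7.50, adjusted p = 4.52e-05), HXT5 (4.39, 5.73e-05), HXT7 (3.72, 1.67e-04) and MAL11 (2.56, 0.00385). It was larger in size at 20 min for HXT3 (-5.38, adjusted p = 4.52e-05) and HXT4 (-4.04, 9.02e-05). Of the neighbouring genes, REE1 (3.02, adjusted p = 2.08e-04) and DLD3 (2.04, 0.0021) were less far apart between strains at 20 min.

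Elsewhere the strain difference was more negative at 20 min for URA3 (-3.44, adjusted p = 3.41e-04), RPR2 (-2.28, 1.90e-04) and SNU56 (-1.42, 0.0037). YLR108C, of unknown function, was further apart at 20 min (4.92, adjusted p = 4.52e-05), with a difference of 6.63 at 20 min, against 1.71 at 0 min. PAU5 was less far apart at 20 min (-1.04, adjusted p = 0.0293).

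On chromosome I, LTE1 changed sign, with a difference of -1.45 at 20 min, against 1.59 at 0 min (-3.04, adjusted p = 2.95e-04). FRT2 was further apart at 20 min (2.48, adjusted p = 1.04e-04). SPO7 (-0.89, adjusted p = 0.00292), SPC72 (-0.88, 0.0491) and CDC15 (-0.80, 0.0432) were less far apart and kept a positive difference.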

How the results depend on the processing

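Directions did not change among the 30 genes named by size in the 11 alternatives run on them. They could not change when 1 array was left out, since these genes were chosen without overlap between the strains. The count of called genes depended on how the spread was estimated and on single arrays. With replicates 1 and 3 it was 70, and 41 with the values as deposited, 10 with the 0 min arrays alone (0 higher and 10 lower), 111 with an intensity trend and robust variance, 22 at an adjusted p under 0.01, and 13 to 68 when 1 array was left out. With all 3 replicates it was 25, and 10 with the values as deposited, 12 with arrays centred on their medians, 6 with the 0 min arrays alone (0 higher and 6 lower), 138 with array weights, 14 at an adjusted p under 0.01, and 13 to 20 when 1 array was left out. Where a strain keeps 1 array, that array is assumed to vary like the other groups. With a replicate block, 44 genes were called with replicates 1 and 3 and 9 with all 3, and the numbers did not pair the arrays. The chromosome I median of 0.98 was 0.84 as deposited, 0.94 with quantile normalization over the 0 min arrays alone and with all 3 replicates, and 0.98 to 1.03 when 1 array was left out. The 5 called genes of the functional lists were 1 as deposited, with the replicate block or with all 3 replicates, 0 with the 0 min arrays alone, 11 without dim genes, 18 with the trend, and 0 to 16 when 1 array was left out. The 55 calls shared with 20 min were 34 as deposited, 36 with the replicate block, and 13 to 46 when 1 array was left out. The cause of these changes was not tested. Values at the floor limit folds of genes lost in the null strain.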

Other observations

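Some genes differed between the strains by more than 1 log2 unit on replicates 1 and 3 without a call, and they were picked here after their values were seen. HO, the endonuclease of mating type switching, had 7.94 and 6.89 on null replicates 1 and 3, against 10.02 and 9.57 on reference replicates 1 and 3 (-2.38, adjusted p = 0.168), and 7.15 in null and 10.11 in reference on replicate 2. The null arrays were thus below the reference arrays on all 6. FRE7, a ferric reductase induced by copper shortage, had 6.26 and 3.92 in null, against 8.59 and 9.48 in reference (-3.94, adjusted p = 0.172), with 8.04 in null and 8.20 in reference on replicate 2. PAU7, of the seripauperin family, had 8.54 and 9.20 in null, against 6.07 and 6.66 in reference (2.51, adjusted p = 0.17). SPS100, a spore wall protein, had 11.30 and 12.41 in null, against 10.12 and 10.04 in reference (1.78, adjusted p = 0.2). MUB1, a partner of the ubiquitin ligase Ubr2, had 10.96 and 10.64 in null, against 9.55 and 8.76 in reference (1.65, adjusted p = 0.0995), and SCW11, a daughter cell wall glucanase, had 10.60 and 8.39 in null, against 11.65 and 11.15 in reference (-1.90, adjusted p = 0.304). For FRE7 and SCW11 the null arrays themselves differed by more than 2 log2 units.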
